A study of Mus musculus with 32 samples.

Results

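The genes of all collagen chains were described in parental and anti-PD-1 resistant MC38, a mouse line labelled as colon adenocarcinoma, grown as tumors and in culture. Every row of the deposited table whose symbol is Col, a number, a and a number was taken, which gave 44 of 22329 genes. Poly(A) RNA had been sequenced from 12 resistant and 13 parental tumors, each grown under the skin of untreated C57BL6/J mice, and from 5 resistant and 2 parental untreated cultures. The resistant line, MC38-resistant in the labels, is resistant to anti-PD-1, an antibody against a checkpoint receptor of T cells, and no tumor or culture had been treated when it was collected. The labels do not say whether the resistant line is 1 clone, nor give the age of the mice. Nor do they say that the libraries of a group came from separate cultures, so the p-values rest on how far these libraries spread, and that spread may be technical. Values are TPM, the usual unit of transcript abundance, which sets each gene's reads against its length and scales every library to the same total. They are therefore shares of a library, so values of samples that differ in composition compare less directly. The depth of each library is unknown.

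Collagens are proteins of the extracellular matrix in which 3 alpha chains wind into a triple helix, and each chain has its own gene. Fibrillar collagens pack into the fibrils that give connective tissue its tensile strength, and FACIT collagens sit on the surface of those fibrils. Collagen IV forms the network of basement membranes, collagen VI forms beaded microfibrils around cells, collagen VII forms anchoring fibrils below epithelia, and the multiplexins XV and XVIII are collagens of basement membrane zones that carry glycosaminoglycan chains. In solid tumors most fibrillar collagen is known to come from fibroblasts and related stromal cells, while blood vessels and tumor cells can also make collagen.

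At least 1 TPM in the mean of some group was reached by 28 of the 44 chain genes, and at least 10 TPM by 18. By class these were 9 of 11 fibrillar chains, 4 of 6 basement membrane chains, 5 of 9 FACIT chains, 3 of 6 microfibrillar chains, 2 of 3 short-chain network chains, 2 of 4 transmembrane chains, both multiplexins and the anchoring fibril chain Col7a1. The 16 chains below were Col2a1, Col4a3, Col4a4, Col6a4, Col6a5, Col6a6, Col9a1, Col9a2, Col10a1, Col17a1, Col19a1, Col20a1, Col24a1, Col25a1, Col26a1 and Col28a1. Col6a5 was listed at 0 in every library. Nearest below the limit stood Col2a1, the main cartilage collagen, with a highest group mean of 0.961 TPM, and nearest above it stood Col23a1 with 1.02 TPM and Col22a1 with 1.63 TPM. Chains with a mean of at least 1 TPM numbered 27 in resistant tumors and 25 in parental tumors, and 16 in resistant culture and 19 in parental culture.

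The labelled cell type was set against its markers. The summed level of 8 colon epithelium markers was between 1.49 and 6.63 TPM in resistant tumors, 2.55 and 11.9 TPM in parental tumors, 0.0473 and 0.309 TPM in resistant culture, and 2.62 and 5.17 TPM in parental culture. Epcam, the epithelial adhesion molecule, averaged 0.223 TPM in resistant tumors and 0.285 TPM in parental tumors, and Cdh1, which encodes E-cadherin, averaged 0.0168 TPM in resistant culture and 0.0452 TPM in parental culture. Colon epithelium markers were thus at or near 0 in resistant culture, and in parental culture 1 of the 8, Krt20, reached 1 TPM. Pdgfra, a receptor that marks fibroblasts, averaged 40.8 TPM in resistant culture and 40.5 TPM in parental culture. Dcn, which encodes the collagen-binding proteoglycan decorin and also serves as a fibroblast marker, averaged 589 TPM in resistant culture and 4.24 TPM in parental culture, so these markers do not separate host fibroblasts from the line. In 4 parental tumor libraries, replicates 2, 3, 7 and 8, GC-rich genes stood high against GC-poor genes, and results that change without them are given both ways. Genes at 1 TPM or more numbered 11573 to 12809 in resistant tumors, 11963 to 13308 in parental tumors, 10470 to 10799 in resistant culture and 10654 to 10978 in parental culture.

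Promoter windows were matched by symbol in the RefSeq table of build GRCm38.p6, which runs from 250 bases before to 50 bases after an annotated start, and 35 of the 44 chain genes had a window. Windows of 3 chains are shown because their line difference was not the same in tumors and in culture. Col4a1 and Col4a2 encode the chains of the main collagen IV trimer and are transcribed away from each other. Their annotated starts lie 21 bases apart on opposite strands, at chr8:11312777-11313076 on the minus strand for the Col4a1 window and chr8:11312555-11312854 on the plus strand for the Col4a2 window, so the windows share 78 bases. Col3a1, a fibrillar chain gene, lies at chr1:45311288-45311587 on the plus strand. Each is written 5′ to 3′ on its gene's strand, and capitals mark matches on either strand to 3 motifs: the GC box GGGCGG, the CAAT box (sequence CCAAT) and the TATA box (sequence TATAAA). No match overlaps another in these windows.
Col4a1: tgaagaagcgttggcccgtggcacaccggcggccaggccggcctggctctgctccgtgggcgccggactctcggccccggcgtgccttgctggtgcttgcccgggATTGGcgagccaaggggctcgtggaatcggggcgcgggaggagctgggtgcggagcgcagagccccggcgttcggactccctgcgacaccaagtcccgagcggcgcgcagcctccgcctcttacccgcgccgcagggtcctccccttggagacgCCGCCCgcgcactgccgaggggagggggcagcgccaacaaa
Col4a2: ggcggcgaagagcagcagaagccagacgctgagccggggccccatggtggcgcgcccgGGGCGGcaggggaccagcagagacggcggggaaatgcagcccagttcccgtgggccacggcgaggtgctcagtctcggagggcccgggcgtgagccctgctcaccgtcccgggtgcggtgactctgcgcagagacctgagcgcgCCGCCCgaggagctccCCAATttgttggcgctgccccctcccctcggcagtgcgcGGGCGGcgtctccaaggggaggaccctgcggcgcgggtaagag
Col3a1: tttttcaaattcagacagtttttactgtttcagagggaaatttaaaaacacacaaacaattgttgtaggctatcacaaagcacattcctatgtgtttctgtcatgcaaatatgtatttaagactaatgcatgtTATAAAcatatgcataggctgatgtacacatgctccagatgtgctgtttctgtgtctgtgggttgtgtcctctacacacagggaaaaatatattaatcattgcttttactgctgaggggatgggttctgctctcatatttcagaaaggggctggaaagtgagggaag

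The Col4a1 window held 1 match to GGGCGG and 1 to CCAAT, the Col4a2 window held 3 to GGGCGG and 1 to CCAAT, and neither held TATAAA. The Col4a1 match to GGGCGG lies in the shared bases and is the same site as 1 of the 3 of Col4a2. The Col3a1 window held 1 match to TATAAA and none to the other motifs. GC content was 74% in the Col4a1 window, 73.7% in the Col4a2 window and 37.7% in the Col3a1 window. Over the 24 windows of the 22 described chain genes with a window, GGGCGG on either strand was in 75% of windows, against 35.7% of all 32851 windows of the table. The described chain genes were chosen for reaching 1 TPM and the genes of all windows were not, so these shares are not like for like. CCAAT was in 37.5% of chain windows and 37.4% of all windows, and TATAAA in 12.5% and 13.6%. These matches describe letters in the window and were not tested as binding sites.

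Collagen RNA was higher in resistant than in parental tumors, and higher in tumors than in culture for both lines. Summed over the 44 genes it was 4661 ± 411 TPM in resistant tumors (SD, n = 12; 4166 to 5311) and 2870 ± 655 TPM in parental tumors (SD, n = 13; 1961 to 4207). In culture it was 970.0 ± 47.9 TPM in resistant libraries (SD, n = 5) and 624 ± 51.5 TPM in parental libraries (SD, n = 2). In a bulk tumor, more cells of a collagen-making type and more collagen RNA per cell cannot be told apart. Collagen VI was the largest class in every group: its chains made up 60.9% of collagen TPM in resistant tumors and 64.0% in parental tumors, and 75.7% in resistant culture and 46.8% in parental culture. Fibrillar chains summed to 1242 ± 399 TPM in resistant tumors and 591 ± 274 TPM in parental tumors, against 70.9 ± 17.9 TPM in resistant culture and 92.3 ± 11.3 TPM in parental culture. Basement membrane chains ran the other way between the lines, with 69.0 ± 18.1 TPM in resistant tumors and 90.1 ± 18.3 TPM in parental tumors, and 14.1 ± 12.4 TPM in resistant culture and 115 ± 17.1 TPM in parental culture. The resistant and parental tumors overlapped in the total by the highest parental tumor alone, and in each class sum.

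**Figure D1:**
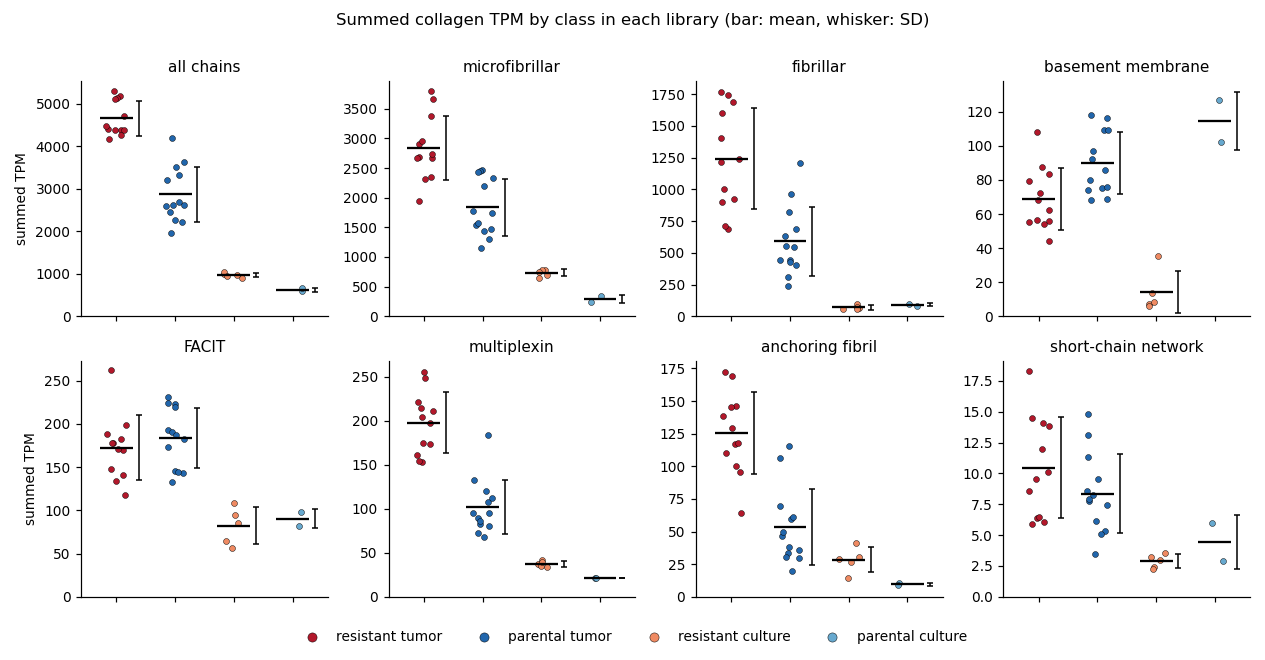
Summed TPM of all collagen chain genes and of 7 classes in each library, by group from left to right as resistant tumor, parental tumor, resistant culture and parental culture; points are libraries, bars the group mean and whiskers the SD beside it. Total collagen stands between 4166 and 5311 TPM in resistant tumors and between 1961 and 4207 TPM in parental tumors, while the basement membrane panel has parental culture highest, at 115 ± 17.1 TPM.

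The order of the chains was led by Col6a3 in all 4 groups. In resistant tumors Col6a3 (1482 TPM) was followed by Col6a1 (781 TPM), Col6a2 (576 TPM), Col3a1 (526 TPM), Col1a1 (335 TPM), Col18a1 (147 TPM), Col16a1 (146 TPM) and Col5a3 (139 TPM). Parental tumors gave Col6a3 (842 TPM), Col6a1 (523 TPM), Col6a2 (472 TPM), Col3a1 (281 TPM), Col16a1 (167 TPM) and Col1a1 (94.0 TPM). Resistant culture gave Col6a3 (493 TPM), Col6a1 (165 TPM), Col16a1 (80.0 TPM) and Col6a2 (76.2 TPM), and parental culture gave Col6a3 (198 TPM), Col16a1 (80.5 TPM), Col6a1 (70.0 TPM) and Col4a1 (65.0 TPM). Neighbours in these orders were often within their spread: Col16a1 and Col18a1 in resistant tumors had SDs of 34.4 and 36.4 TPM, and Col16a1 and Col6a1 in parental culture had SDs of 13.0 and 15.3 TPM.

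The first comparison set tumors of the resistant line against tumors of the parental line. Of the 44 chains, 25 reached the filter of 1 TPM in at least 12 tumors and were tested with limma on log2(TPM + 1), a scale that understates the change of low genes, with adjusted p-values over all 12095 genes tested. At an adjusted p under 0.05, 12 chains were higher in resistant tumors, 2 were lower and 11 did not pass. Over all genes tested, 16.3% were called higher and 13.9% lower. The median log2 difference was 0.50 over the 25 chains and 0.04 over all genes. No chain separated the resistant from the parental tumors without overlap, which 0.496% of all genes did with higher and 0.546% with lower values in resistant tumors.

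Among fibrillar chains, 6 of 9 tested were higher in resistant tumors and none was lower. Col5a2, a chain of the collagen V that is known to start fibril formation, had 20.4, 39.4 and 72.6 TPM as the lowest, median and highest of resistant tumors, against 4.20, 12.7 and 33.3 TPM in parental tumors. The log2 difference was 1.65 ± 0.23 (SE, limma adjusted p = 7.75e-06), and all 12 resistant tumors lay above the parental mean. Col5a3, another collagen V chain, had 105, 138 and 188 TPM in resistant tumors and 12.4, 74.1 and 154 TPM in parental tumors (1.09 ± 0.22, adjusted p = 5.67e-04). Col5a1, the chain present in most collagen V trimers, had 48.4, 91.2 and 121 TPM in resistant tumors and 43.7, 69.5 and 137 TPM in parental tumors, a difference that did not pass (0.31 ± 0.15, adjusted p = 0.125). It passed without resistant tumor 12 (adjusted p = 0.0428) or without parental tumor 10 (adjusted p = 0.0292).

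Col3a1, the chain of collagen III, which is abundant in extensible tissues and healing wounds, had 316, 498 and 756 TPM in resistant tumors and 116, 219 and 562 TPM in parental tumors. It was higher by 1.05 ± 0.23 on the log2 scale (adjusted p = 0.00121), with all 12 resistant tumors above the parental mean. Col1a2, one of the chains of collagen I, the main collagen of skin and bone, had 27.0, 73.6 and 153 TPM in resistant tumors and 12.5, 33.5 and 90.1 TPM in parental tumors (0.98 ± 0.29, adjusted p = 0.0109). Col27a1, a fibrillar chain known from cartilage, had 12.1, 21.3 and 30.8 TPM in resistant tumors and 5.47, 10.6 and 19.9 TPM in parental tumors (0.97 ± 0.18, adjusted p = 2.24e-04). The ranges of the lines overlapped for each of these chains. Col11a1 and Col11a2, chains of a collagen found with collagen II in cartilage, stayed under 3 TPM in both means and did not pass, with log2 differences of -0.25 and 0.28.

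Col1a1, the other chain of collagen I, spread widely within both lines. Its lowest, median and highest values were 13.0, 427 and 618 TPM in resistant tumors and 2.06, 85.7 and 364 TPM in parental tumors, and its log2 difference was 2.18 ± 0.74 (limma adjusted p = 0.0264, 9 of 12 resistant tumors above the parental mean). The GC index of a tumor library is the median log2 level of its GC-rich genes minus that of its GC-poor genes, each gene set against its mean over tumors. It ran from -0.53 to 0.27 in resistant tumors and from -0.29 to 0.87 in parental tumors, with 4 parental tumors above 0.5. Col1a1 stood between 2.06 and 15.7 TPM in those 4 tumors and between 43.6 and 364 TPM in the other 9 parental tumors. The difference was 0.89 (adjusted p = 0.278) without the 4 tumors and 0.40 (adjusted p = 0.274) with the GC index as a covariate, so the call ended in both fits. With no filter on low genes its adjusted p was 0.0511. Mitochondrially encoded genes took 4.65 to 5.35% of TPM in the 4 tumors, against 4.65 to 10.6% over all parental tumors and 7.20 to 14.4% in resistant tumors.

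Within each line, log2(TPM + 1) was set against the GC index for 18 chains, 36 relations in all with the parental tumors limited to the 9 with an index up to 0.5. Col1a1 had a Pearson r of -0.90 in resistant tumors (n = 12, permutation p = 1.1e-04, adjusted 0.00198; Spearman rho -0.76, p = 0.00581, adjusted 0.0652). In the 9 parental tumors r was -0.85 (exact permutation p = 0.00608, adjusted 0.0367; rho -0.85, p = 0.00607, adjusted 0.0652). Without the 2 tumors farthest from the median index r was -0.83 and -0.67. Col6a2 ran the opposite way in resistant tumors, with r = 0.95 (permutation p = 3e-05, adjusted 0.00108; rho 0.80, p = 0.00289, adjusted 0.0652) and 0.89 without 2 tumors. In the 9 parental tumors its r was 0.52 (exact permutation p = 0.155, adjusted 0.399; rho 0.15, p = 0.708, adjusted 0.850) and 0.07 without 2 tumors. Transcript GC content was 58.9% for Col1a1, 58.1% for Col1a2 and 58.0% for Col6a2, against a median of 55.7% over the 44 chains (46.3 to 64.1%) and 50.8% over the genes of the index. Col1a1 and Col6a2 ran in opposite directions against the index in resistant tumors, and the part of their GC content in this was not tested. Of the other chains, 3 passed by Pearson's r in resistant tumors, all of them called higher there than in parental tumors. Col12a1 had r = -0.78 (permutation p = 0.00238, adjusted 0.0275; rho -0.75, p = 0.00724, adjusted 0.0652; r = -0.60 without 2 tumors). Col3a1 had r = -0.75 (permutation p = 0.00611, adjusted 0.0367; rho -0.69, p = 0.0162, adjusted 0.116; r = -0.57 without 2). Col6a1 had r = 0.76 (permutation p = 0.00306, adjusted 0.0275; rho 0.67, p = 0.0202, adjusted 0.121; r = 0.57 without 2). Their calls between the lines held with the index as a covariate and without the 4 parental tumors, and with the covariate the Col12a1 difference was 0.67 (limma adjusted p = 0.0116). No relation passed by Spearman's rho.

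**Figure D2:**
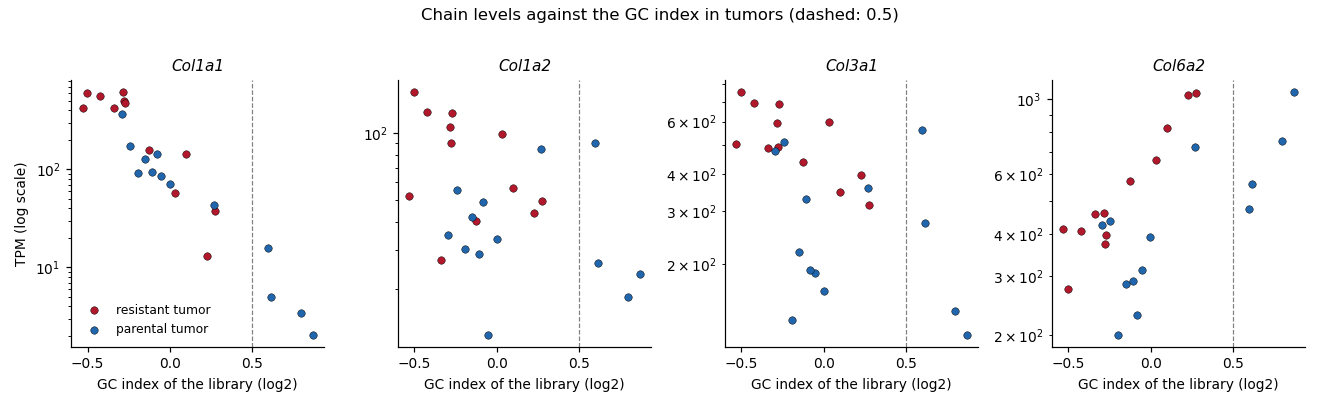
TPM of Col1a1, Col1a2, Col3a1 and Col6a2 on log axes against the GC index of each tumor library in log2 units; red points are resistant and blue points parental tumors, and the dashed line marks an index of 0.5. The 4 parental tumors right of the line have 2.06 to 15.7 TPM of Col1a1 and 474 to 1053 TPM of Col6a2.

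The 3 chains of collagen VI formed the most abundant class. Col6a3, the longest chain of the trimer, had 1142, 1474 and 1930.2 TPM in resistant tumors and 563, 831 and 1275 TPM in parental tumors (log2 0.85 ± 0.12, adjusted p = 7.60e-06). Col6a1 had 524, 764 and 1060.1 TPM in resistant tumors and 308, 458 and 822 TPM in parental tumors (0.61 ± 0.14, adjusted p = 0.00128). All 12 resistant tumors lay above the parental mean for both genes, while the ranges overlapped. Col6a2 had 274, 459 and 1041 TPM in resistant tumors and 201, 424 and 1053 TPM in parental tumors and did not pass (0.33 ± 0.24, adjusted p = 0.320). It was called higher in resistant tumors without the 4 parental tumors of high GC index (0.63, adjusted p = 0.0458) and with the index as a covariate (0.84, adjusted p = 1.29e-04). In the 4 tumors Col6a2 stood at 474 to 1053 TPM, and at 201 to 725 TPM in the other 9.

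Col7a1, the only chain of the anchoring fibril collagen, had 64.4, 124 and 172 TPM in resistant tumors and 19.6, 46.5 and 116 TPM in parental tumors. It was higher by 1.34 ± 0.22 (adjusted p = 4.64e-05) with 12 of 12 resistant tumors above the parental mean. Col18a1, whose C-terminal fragment is endostatin, had 97.3, 145 and 205 TPM in resistant tumors and 37.2, 63.4 and 136 TPM in parental tumors (1.13 ± 0.16, adjusted p = 1.05e-05). Col15a1, the other multiplexin, had 28.9, 53 and 73.9 TPM in resistant tumors and 24.8, 31.9 and 53.4 TPM in parental tumors (0.57 ± 0.14, adjusted p = 0.00244). Both multiplexins and the anchoring fibril chain were thus among the 12 called higher.

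FACIT chains did not move together. Col12a1, a large FACIT of tendons and other dense tissue, was the only one of 4 tested that passed: it had 5.87, 15.7 and 37.3 TPM in resistant tumors and 2.65, 7.80 and 13.7 TPM in parental tumors (1.07 ± 0.24, adjusted p = 0.00134). Col16a1, the most abundant FACIT, had 99.5, 149 and 230 TPM in resistant tumors and 113, 173 and 215 TPM in parental tumors (-0.20 ± 0.12, adjusted p = 0.226). Col14a1 averaged 2.77 ± 1.92 TPM in resistant tumors and 3.24 ± 2.02 TPM in parental tumors, and Col9a3 averaged 3.59 ± 1.36 and 5.20 ± 3.33 TPM in resistant and parental tumors. Neither passed. Col22a1, a FACIT of tissue junctions such as the myotendinous junction, had 0.239, 1.27 and 4.10 TPM in resistant tumors and 0, 0.146 and 0.445 TPM in parental tumors, and was below the filter for the test.

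Of the basement membrane chains, Col4a1 and Col4a2 were the only members called lower in resistant tumors. Col4a1 had 16.1, 29.9 and 58.9 TPM in resistant tumors and 24.9, 43.2 and 76.7 TPM in parental tumors (-0.54 ± 0.19, adjusted p = 0.0304). Col4a2 had 17.5, 25.4 and 33.6 TPM in resistant tumors and 25.0, 33.3 and 45 TPM in parental tumors (-0.40 ± 0.11, adjusted p = 0.00631). For each gene 11 of 12 resistant tumors lay below the parental mean. In 1 fit over all libraries, where the cultures also set the spread, neither passed (adjusted p = 0.157 and 0.163), and the Col4a1 call also ended without resistant tumor 6, 7, 9 or 12, without parental tumor 4 or 9 (adjusted p 0.0502 to 0.0558), or with no filter (adjusted p = 0.0530). Col4a5 and Col4a6, chains of the collagen IV trimers of kidney and smooth muscle, averaged 8.60 and 1.23 TPM in resistant tumors and 6.04 and 1.0 TPM in parental tumors, without passing.

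The remaining classes were low. Col8a1, a short-chain network collagen of vessel walls and the eye, averaged 10.2 ± 4.01 TPM in resistant tumors and 7.77 ± 2.77 TPM in parental tumors (0.35 ± 0.20, adjusted p = 0.184). Col13a1, a transmembrane collagen of the neuromuscular junction and other adhesion sites, averaged 1.80 ± 1.22 and 1.09 ± 0.652 TPM in resistant and parental tumors (0.38 ± 0.19, adjusted p = 0.132). With the GC index as a covariate it passed (0.72, adjusted p = 7.64e-04). Col23a1, another transmembrane chain, averaged 1.02 and 0.726 TPM in resistant and parental tumors, and Col8a2 averaged 0.229 and 0.577 TPM, and both were below the filter.

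**Figure D3:**
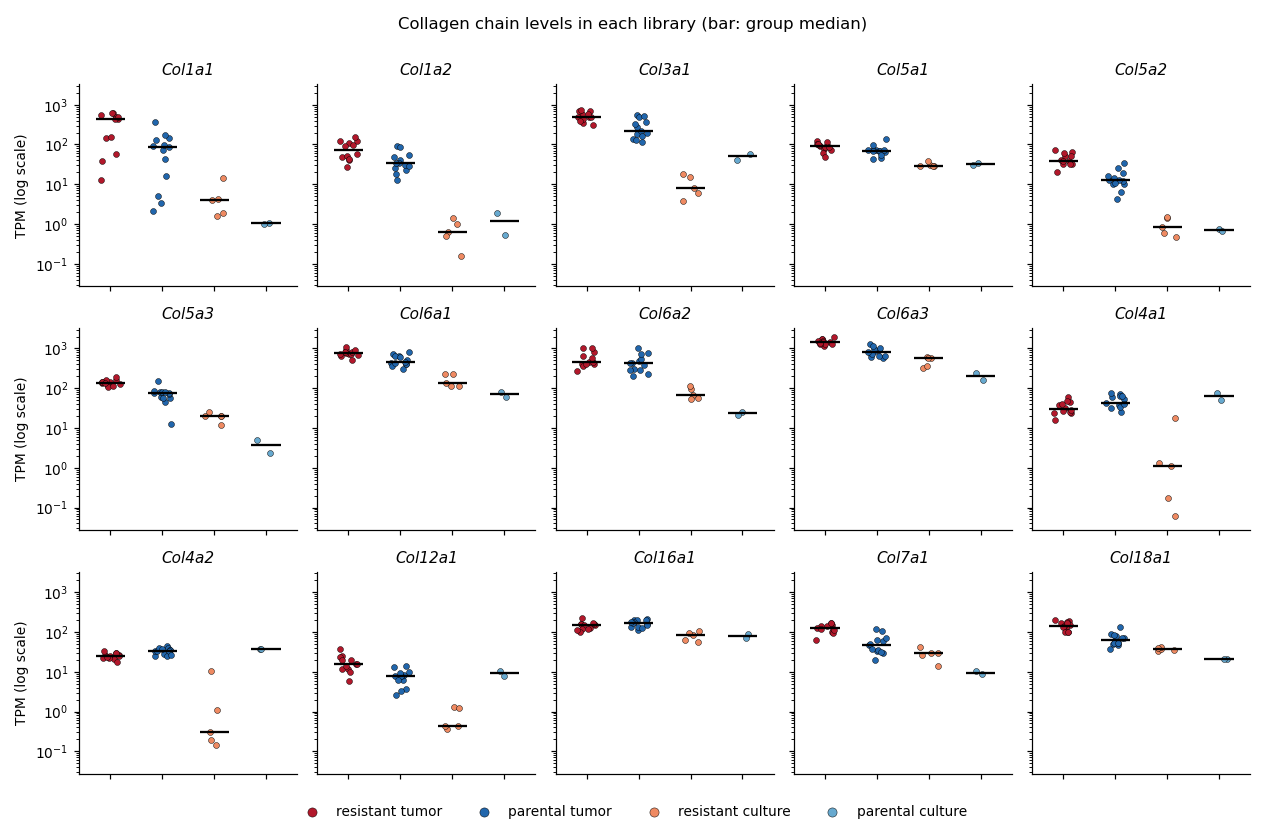
TPM of 15 chains in each library on a log axis, with libraries as points and the group median as a bar, in the order resistant tumor, parental tumor, resistant culture, parental culture. Col6a3 has the highest medians, while Col4a1, Col4a2, Col12a1 and Col3a1 have resistant culture far below the 3 other groups.

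Cell type markers that moved with the line difference in tumors were counted beside it. Among all genes tested in tumors, 16.3% were called higher and 13.9% lower in the resistant line. Of 10 tested fibroblast markers, 4 were higher in resistant tumors (Dcn, Fap, Dpt and Fbln1) and none was lower, and the list summed to 350 to 856 TPM in resistant tumors and 195 to 878 TPM in parental tumors. In culture, outside the host, the same list summed to 257 to 835 TPM in resistant and 44.8 to 68.4 TPM in parental libraries. Pdgfra averaged 57.2 ± 18.1 TPM in resistant tumors and 69.1 ± 19.1 TPM in parental tumors and did not pass. Of 8 tested pericyte and smooth muscle markers, 4 were higher, among them Rgs5 with 78.6 ± 17.0 TPM in resistant tumors and 12.6 ± 6.71 TPM in parental tumors, and the list summed to 138 to 199 TPM and 57 to 114 TPM in resistant and parental tumors. Of 8 macrophage markers 7 were lower, with Adgre1 at 10.2 ± 2.91 TPM in resistant tumors and 24.9 ± 7.26 TPM in parental tumors, and sums of 288 to 554 TPM and 287 to 1189 TPM. None of the 10 endothelial markers passed, with Pecam1 at 19.2 ± 3.23 TPM in resistant tumors and 16.9 ± 3.0 TPM in parental tumors, and Cdh5 at 40.0 ± 10.3 TPM and 44.3 ± 15.3 TPM in resistant and parental tumors. The endothelial list summed to 67 to 164 TPM in resistant tumors and 81.9 to 171 TPM in parental tumors. Skeletal muscle markers were higher in 3 of 6 tested, with Ckm at 4.27 ± 3.13 TPM in resistant tumors and 1.43 ± 1.43 TPM in parental tumors, and sums of 1.90 to 216 TPM and 6.24 to 60 TPM. The part of these cell types in the collagen values was not tested.

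Other markers stayed low or did not pass. Of 2 tested adipocyte markers none passed, and Adipoq averaged 0.863 TPM in resistant tumors and 0.896 TPM in parental tumors. The keratinocyte marker Krt5 averaged 0.0678 TPM in resistant tumors and 0.572 TPM in parental tumors, and the cartilage proteoglycan gene Acan averaged 0.0486 and 0.108 TPM in resistant and parental tumors. The lists summed in resistant and parental tumors to 16.3 to 62.5 and 18.3 to 202 TPM for adipocytes, 0.402 to 8.72 and 1.17 to 15.7 TPM for keratinocytes, and 81.5 to 177 and 15.7 to 172 TPM for chondrocytes. In each of the keratinocyte, chondrocyte and colon epithelium lists 1 marker was tested in tumors and did not pass. Of 6 chondrocyte markers 1 averaged at least 1 TPM in resistant tumors and 2 did in parental tumors. In culture this list summed to 96.0 to 116 TPM in resistant and 26.8 to 41.3 TPM in parental libraries. Its 1 marker tested in culture was called higher in the resistant line (log2 1.64).

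Genes that act on collagen gave mixed counts in tumors, where 16.3% of all genes tested were called higher and 13.9% lower. Of 19 tested genes for folding and modification, 4 were higher and 4 lower in resistant tumors. P3h2, a prolyl 3-hydroxylase known to act on collagen IV, was lower, with 2.66 ± 1.65 TPM in resistant tumors and 9.05 ± 4.31 TPM in parental tumors (-1.45 ± 0.23, adjusted p = 2.57e-05), as was Crtap, a member of the 3-hydroxylation complex of fibrillar collagen (-0.46 ± 0.13). Creb3l1, a transcription factor known to drive Col1a1 in bone, was higher (0.84 ± 0.24). Of 5 tested genes for procollagen processing, 2 were higher, the propeptidases Adamts2 (0.46 ± 0.15) and Bmp1 (0.27 ± 0.10), and 1 was lower, the C-proteinase enhancer Pcolce, with 201 ± 49.4 TPM in resistant tumors and 322 ± 75.8 TPM in parental tumors (-0.68 ± 0.13, adjusted p = 3.54e-04).

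Of 5 crosslinking enzymes, which oxidise lysines of collagen, 2 were higher in resistant tumors, Lox with 19.8 ± 9.71 TPM against 9.59 ± 7.30 TPM in parental tumors (1.11 ± 0.31, adjusted p = 0.00730) and Loxl1 (0.73 ± 0.21). Of 9 regulators of fibril assembly, 5 were higher and none lower, beside 16.3% of all genes called higher and 13.9% lower. Thbs2, which encodes the matrix protein thrombospondin 2, had 53.9 ± 5.56 TPM in resistant tumors and 25.7 ± 6.80 TPM in parental tumors (1.08 ± 0.11, adjusted p = 8.73e-08), and the small proteoglycan gene Bgn (1.46 ± 0.19) and Dpt, for dermatopontin (1.15 ± 0.24), were higher too. Among 5 tested collagen receptor genes, the integrin genes Itga1 (0.86 ± 0.14) and Itgb1 (0.38 ± 0.07) were higher and the receptor kinase gene Ddr2 (-0.35 ± 0.12) was lower. Of 6 genes for degradation and uptake, the gelatinase gene Mmp9 (1.48 ± 0.28) and the collagenase gene Mmp13 (1.19 ± 0.26) were higher and none was lower.

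The second comparison set the lines against each other in culture, outside the host. Of 21 chains tested, 7 were higher in resistant culture, 6 were lower and 8 did not pass, while 6.15% of the 11201 genes tested were called higher and 8.04% lower. Microfibrillar chains were higher in all 3 tested members and basement membrane chains lower in 3 of 4. These calls rest on the pair of parental cultures: 1 chain remained higher without parental culture 1 (Col18a1) and 1 without parental culture 2 (Col5a3). Of the 6 lower chains, Col12a1 alone kept its call without either parental culture, and Col8a2 was called lower in addition without parental culture 1. Without resistant culture 4, 4 chains were higher. Without resistant culture 3, 4 or 5, 4 were lower.

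The collagen VI chains were higher in resistant culture. Col6a3 had 328, 362, 609, 583 and 582 TPM in the 5 resistant cultures, against 159 and 237 TPM in the parental cultures (1.29 ± 0.28, adjusted p = 0.0168). Col6a1 had 232, 229, 116, 136 and 114 TPM in resistant cultures and 59.1 and 80.8 TPM in parental cultures (1.17 ± 0.31, adjusted p = 0.0374). Col6a2 had 93.4, 112, 55.5, 66.1 and 53.8 TPM in resistant cultures and 25.6 and 21.4 TPM in parental cultures (1.60 ± 0.29, adjusted p = 0.00692). The groups did not overlap for any of the 3 chains. With 2 parental cultures this is a weak mark of separation, and the share of all genes that did so in culture was not counted. The Col6a1 call ended without resistant culture 2 (adjusted p = 0.0566) or 4 (adjusted p = 0.0611) and with no filter (adjusted p = 0.0849). Resistant cultures 1 and 2 had the lower Col6a3 and the higher Col6a1 values of their group.

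Col5a3 was 11.7 to 24.8 TPM in resistant cultures and 2.31 and 5.05 TPM in parental cultures (2.14 ± 0.31, adjusted p = 0.00299). Col7a1 had 14.2, 41, 29.2, 30.3 and 26.8 TPM in resistant cultures and 10.3 and 8.80 TPM in parental cultures (1.40 ± 0.33, adjusted p = 0.0231). Col18a1 ranged from 33.7 to 41.6 TPM in resistant cultures and was 20.7 and 20.8 TPM in parental cultures (0.80 ± 0.15, adjusted p = 0.00791), and Col27a1 ranged from 1.90 to 3.36 TPM and was 0.624 and 0.957 TPM in the same order of groups (1.05 ± 0.26, adjusted p = 0.0293). The groups stood apart for all 4 chains, again without a count over all genes beside it. In 1 fit over all libraries the Col18a1 and Col27a1 calls ended (adjusted p = 0.0982 and 0.0517). The Col27a1 call also ended without resistant culture 2, 3 or 4, and the Col7a1 call without resistant culture 4 (adjusted p = 0.0547) or with no filter (adjusted p = 0.0571).

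Collagen IV ran the other way. Col4a1 had 18.3, 1.11, 0.171, 0.0622 and 1.30 TPM in resistant cultures, against 78.2 and 51.7 TPM in parental cultures (-4.64 ± 0.95, adjusted p = 0.0134). Col4a2 had 10.2, 0.303, 0.142, 0.194 and 1.11 TPM in resistant cultures, against 37.4 and 37.7 TPM in parental cultures (-4.19 ± 0.79, adjusted p = 0.00917). Every resistant culture was below both parental cultures for the neighbouring genes whose promoter windows are printed above. With 2 parental cultures this is again a weak mark of separation, and the share of all genes that did so was not counted. Resistant culture 1 was the highest of its group for both genes. Resistant culture 1 also stood apart across all genes, with correlations of 0.984 to 0.985 with the 4 other resistant cultures, which correlated with each other at 0.990 to 0.993. Its summed endothelial markers were 19.9 TPM, against 0.802 to 11.2 TPM in the 4 others and 11.6 to 17.9 TPM in the parental cultures. Cdh5 was at 7.18 TPM in resistant culture 1, against at most 1.87 TPM in the 4 others. Pecam1 was at 0.659 TPM in resistant culture 1 and at 0.576 TPM in resistant culture 5. The part of these markers was not tested. Without resistant culture 1 the differences were -5.37 for Col4a1 and -4.79 for Col4a2, and the counts of chains called were again 7 higher and 6 lower.

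Col3a1 had 6.12, 15, 8.08, 18 and 3.88 TPM in resistant cultures and 41.8 and 58.2 TPM in parental cultures (-2.34 ± 0.48, adjusted p = 0.0133). Col12a1 had 1.31, 0.354, 0.421, 1.23 and 0.442 TPM in resistant cultures and 7.66 and 10.5 TPM in parental cultures (-2.55 ± 0.32, adjusted p = 0.00142). Col11a1 (0.0165 to 0.754 TPM in resistant cultures, 1.76 and 2.29 TPM in parental cultures) and Col4a6 (0.0427 to 1.08 TPM, against 2.56 and 2.49 TPM) were the other lower chains. Both calls ended with a pseudocount of 0.1 (adjusted p = 0.0669 and 0.118), and without resistant culture 3, 4 or 5, as did Col4a6 without resistant culture 2. Col1a1 had 4.11, 14.1, 1.89, 4.27 and 1.55 TPM in resistant cultures and 1.05 and 1.03 TPM in parental cultures and did not pass (1.28 ± 0.60, adjusted p = 0.185). Col5a1 averaged 31.0 ± 4.54 TPM in resistant culture and 32.5 ± 3.71 TPM in parental culture, and Col16a1 averaged 80.0 ± 20.3 TPM and 80.5 ± 13.0 TPM in resistant and parental culture. Neither passed. Col8a2 was listed at 0 in 4 resistant cultures and in parental culture 1 and was at 4.07 TPM in parental culture 2.

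In culture 6.15% of all genes tested were called higher in resistant libraries and 8.04% lower. Of 19 tested folding and modification genes 4 were higher there and 3 lower, and of 4 processing genes 1 was higher and 1 lower. Of 2 tested crosslinking genes 1 was higher and 1 lower, and of 5 fibril regulators 3 were higher, Dcn, Bgn and Thbs2. Of 4 receptor genes 2 were lower, and of 4 degradation genes 2 were higher, Mmp9 and Mmp14. P3h2, lower in resistant tumors, was lower in culture as well, with 1.54 TPM in resistant culture and 19.99 TPM in parental culture (log2 -3.14, adjusted p = 0.00394), and Pcolce had 157 TPM in resistant culture and 332 TPM in parental culture (-1.09, adjusted p = 0.00603).

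**Figure D4:**
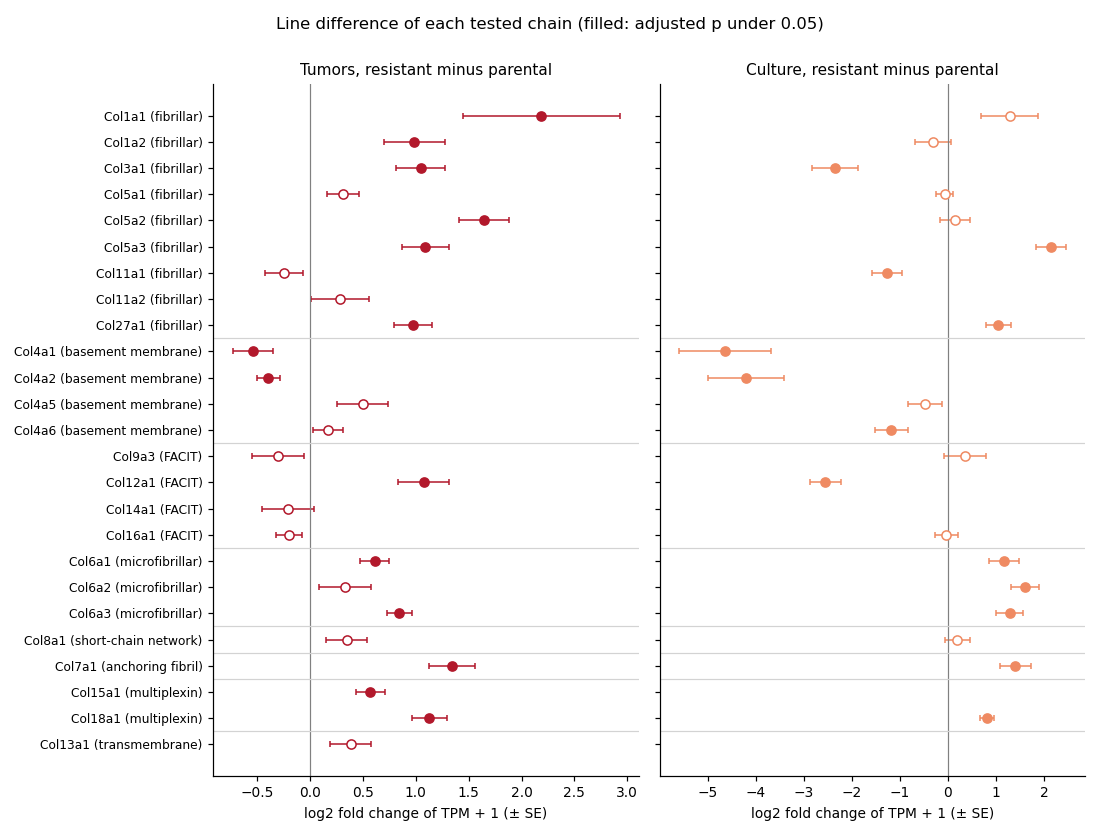
Log2 fold change of TPM + 1, resistant minus parental, with its SE for the 25 chains tested in tumors (left) and those of them tested in culture (right), grouped by class; filled points passed an adjusted p under 0.05. Col4a1 and Col4a2 are at -0.54 and -0.40 in tumors and at -4.64 and -4.19 in culture, and Col3a1 and Col12a1 are on opposite sides of 0 in the panels.

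The difference between the lines was then compared between the settings, in 1 fit over 32 libraries, by subtracting the resistant minus parental value of cultures from that of tumors. Of 35 chains tested, 5 differed, with a positive value in each: Col4a1 (4.10 ± 0.68, adjusted p = 1.33e-04), Col4a2 (3.79 ± 0.50, adjusted p = 3.89e-06), Col12a1 (3.63 ± 0.53, adjusted p = 2.07e-05), Col3a1 (3.39 ± 0.56, adjusted p = 1.27e-04) and Col4a6 (1.35 ± 0.33, adjusted p = 0.0104). Over all 15061 genes tested 2.4% had a positive and 1.61% a negative call. No chain had a negative call with limma at this threshold, and 2 had a negative value at an unadjusted p under 0.05. Col3a1 and Col12a1 were called higher in resistant tumors and lower in resistant culture, while Col4a1 and Col4a2 were called lower in both settings with log2 values of -0.54 and -0.40 in tumors and -4.64 and -4.19 in culture. The Col4a6 call ended without parental culture 1 (adjusted p = 0.0707) or 2 (adjusted p = 0.111). This fit takes its spread from all libraries, most of them tumors, while its culture side rests on 2 parental libraries. In the fit of cultures alone the calls of Col4a1, Col4a2 and Col3a1 ended without parental culture 1 or 2.

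The third pair of comparisons set tumors against culture of the same line. All tumor libraries have titles that begin with GPN, and all culture libraries have titles that begin with MJ. What these series stand for is not given, so setting and title series cannot be told apart. Of 27 chains tested in the resistant line, 26 were higher in tumors and none was lower in this fit, against 35.3% of 12312 genes called higher and 15% lower. At an unadjusted p under 0.05 the number lower was 0. A chain could meet the filter in both lines through its tumor values alone. Col13a1 and Col14a1 were listed at 0 in every resistant culture, and Col11a1, Col11a2, Col15a1, Col22a1 and Col6a4 stayed under 1 TPM in each. For such chains a higher value in tumors was close to fixed by the filter. With a filter of 5 TPM, 18 chains were called higher in resistant tumors. Of 32 tested in the parental line, 19 were higher in tumors and 1, Col4a6, was lower, against 16.1% of 14348 genes called higher and 5.99% lower. The median log2 difference over chains was 1.92 in the resistant and 1.13 in the parental line, beside 0.18 and 0.21 over all genes. Quantile normalization moved the median of all genes to -0.13 and -0.09 and the share of calls that were higher to 38.9% and 47.9%, against 70.2% and 72.9% as deposited. Under it 19 of the 26 chains were still called higher in resistant tumors. The calls of Col11a1, Col11a2, Col13a1, Col22a1, Col4a6, Col6a4 and Col9a3 ended, and Col11a1 (-0.39) and Col4a6 (-0.68) were called lower in resistant tumors than in resistant culture. In the parental line 14 of the 19 chains were still called higher under quantile normalization, and the calls of Col11a2, Col13a1, Col1a1, Col8a1 and Col9a3 ended. As deposited, Col4a6 was among the 26 (0.49, adjusted p = 0.0340), a call that ended without resistant culture 1, 4 or 5 or resistant tumor 10. The parental comparison has 2 cultures, and without culture 1 or culture 2 the chains called higher numbered 12 and 11. The calls of Col1a1 and Col5a1 ended both times, that of Col3a1 without culture 1, and those of Col7a1 and Col16a1 without culture 2. The Col4a6 call there also ended with a pseudocount of 0.1, with no filter, with robust moderation and without either culture or any of 9 single tumors (1, 2, 3, 4, 5, 6, 8, 11 and 12).

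Collagen I, collagen III and Col15a1 were called higher in tumors than in culture in both lines. The parental Col1a1 call (4.49, limma adjusted p = 0.0248) was the weaker one. Besides the fits without a culture, it ended with no filter (adjusted p = 0.0506) and under quantile normalization (adjusted p = 0.0783). Col1a2 averaged 80.4 ± 40.7 TPM in resistant tumors and 0.742 ± 0.491 TPM in resistant culture (5.41 ± 0.33), and 40.7 ± 23.8 TPM in parental tumors and 1.20 ± 0.953 TPM in parental culture (4.11 ± 0.52). Col3a1 averaged 526 ± 141 TPM in resistant tumors and 10.2 ± 6.01 TPM in resistant culture (5.68 ± 0.26), and 281 ± 154 TPM in parental tumors and 49.99 ± 11.6 TPM in parental culture (2.29 ± 0.50). Col15a1 averaged 51.1 ± 13.2 TPM in resistant tumors and 0.325 ± 0.227 TPM in resistant culture (5.27 ± 0.18), and 33.8 ± 8.11 TPM in parental tumors and 0.154 ± 0.188 TPM in parental culture (4.89 ± 0.25). Col5a2 averaged 44.7 TPM in resistant tumors and 0.947 TPM in resistant culture, and 14.5 TPM in parental tumors against 0.746 and 0.673 TPM in the parental cultures.

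The collagen VI chains were called higher in tumors in both lines. Between tumors and culture of the resistant line Col6a1 differed by 2.28 ± 0.17, Col6a2 by 2.84 ± 0.27 and Col6a3 by 1.62 ± 0.15. In the parental line Col6a1 differed by 2.84 ± 0.29, Col6a2 by 4.11 ± 0.45 and Col6a3 by 2.06 ± 0.27. Col16a1 differed by 0.86 ± 0.17 and 1.02 ± 0.22, and Col5a1 by 1.46 ± 0.17 and 1.08 ± 0.29, in the resistant and the parental line. Col4a1 averaged 33.9 ± 12.5 TPM in resistant tumors and 4.18 ± 7.89 TPM in resistant culture (3.67 ± 0.46), but 49.5 ± 16.3 TPM in parental tumors and 65.0 ± 18.7 TPM in parental culture, where the difference did not pass (-0.43 ± 0.34, adjusted p = 0.375). Col4a2 did the same, with 3.61 ± 0.35 in the resistant line and -0.19 ± 0.21 (adjusted p = 0.547) in the parental line. Col12a1 was also called in the resistant line alone (3.31 ± 0.29, against -0.32 ± 0.43 in the parental line). Col13a1 and Col14a1 were listed at 0 in every resistant culture and averaged 1.80 and 2.77 TPM in resistant tumors. The contribution of host cells and of the line to these tumor values cannot be told apart in bulk RNA.

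Chains of 1 trimer were compared by their ratio within each tumor, in 5 tests. The ratio of Col5a1 to Col5a2 had 1.22, 1.95 and 4.70 as lowest, median and highest values in resistant tumors, against 1.37, 5.82 and 10.7 in parental tumors. The mean log2 ratio was 1.03 ± 0.53 in resistant tumors and 2.45 ± 0.79 in parental tumors (SD), a difference of -1.42 (two-sided permutation test, 100000 resamples, p = 6.0e-05, adjusted over the 5 ratios 3.0e-04), and 12 of 12 resistant tumors lay below the parental mean. In culture the ratio was far higher, 21.5 to 61.9 in resistant and 44.3 to 47.0 in parental libraries. It rests there on a low Col5a2, at 0.462 to 1.47 TPM in resistant and 0.673 to 0.746 TPM in parental culture, and is imprecise. Taken singly, Col5a2 passed between the lines in tumors and Col5a1 did not. Without the 4 parental tumors of high GC index the difference of the ratio was -1.47 (adjusted p = 1.36e-04).

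The 4 other ratios did not pass over all tumors. Col1a1 to Col1a2 had medians of 3.93 in resistant tumors and 2.94 in parental tumors with ranges of 0.297 to 15.8 and 0.0883 to 10.4 (log2 difference 1.27, permutation p = 0.131, adjusted 0.163). Without the 4 parental tumors of high GC index its difference was -0.06 (adjusted p = 0.936). Col4a1 to Col4a2 had medians of 1.34 in resistant tumors and 1.55 in parental tumors (-0.15, adjusted p = 0.499), and -0.48 (adjusted p = 0.0254) without the 4 tumors. Col6a1 to Col6a2 (medians 1.62 in resistant tumors and 1.38 in parental tumors) and Col6a3 to Col6a1 (1.93 and 1.72) had differences of 0.28 and 0.23 with adjusted p-values of 0.154 each. Without the 4 tumors these differences were 0.0653 and 0.0448 (adjusted p = 0.838 each).

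**Figure D5:**
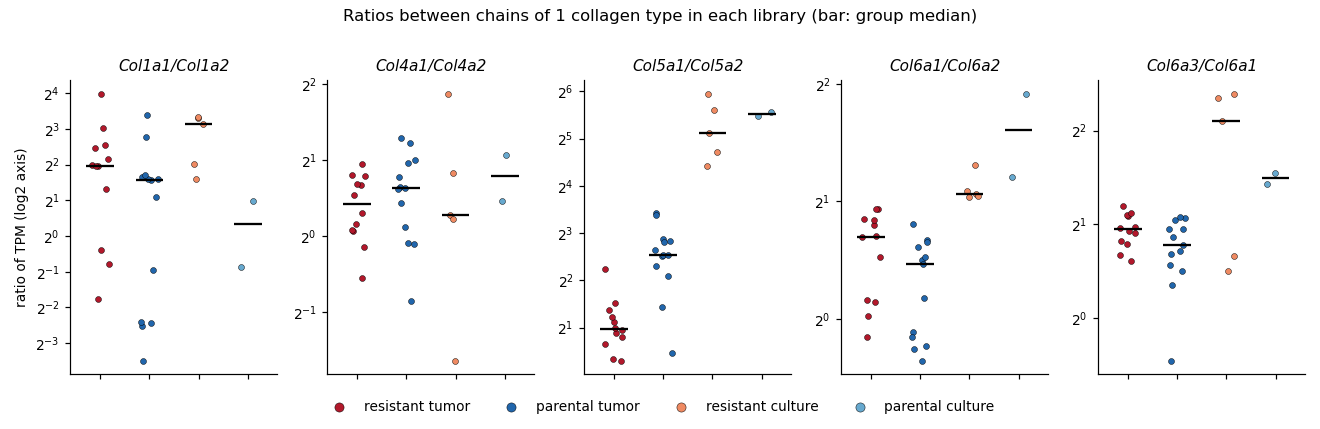
Ratio of TPM between chains of 1 collagen type in each library on a log2 axis, with libraries as points and the group median as a bar, in the order resistant tumor, parental tumor, resistant culture, parental culture. The Col5a1/Col5a2 panel has medians of 1.95 in resistant tumors and 5.82 in parental tumors, with both cultures higher, where Col5a2 was at most 1.47 TPM.

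The same 5 pairs were correlated across tumors within each line on log2(TPM + 1), as 15 relations adjusted together. Col6a1 and Col6a2 had r = 0.89 in resistant tumors (n = 12, permutation p = 6e-05, adjusted 9.0e-04; rho 0.88, p = 2.7e-04, adjusted 0.00405; r = 0.81 without the 2 tumors farthest from the median of Col6a1). In the 9 parental tumors with a GC index up to 0.5 r was 0.86 (exact permutation p = 0.00293, adjusted 0.0110; rho 0.90, p = 0.00203, adjusted 0.00866; r = 0.92 without 2). Col6a3 and Col6a1 had r = 0.74 in resistant tumors (permutation p = 0.00642, adjusted 0.0193; rho 0.67, p = 0.0194, adjusted 0.0582; r = 0.57 without 2) and 0.90 in the 9 parental tumors (exact permutation p = 0.00126, adjusted 0.00630; rho 0.90, p = 0.00203, adjusted 0.00866; r = 0.81 without 2). Col1a1 and Col1a2 (r = 0.43 in resistant tumors and -0.07 in the 9 parental tumors), Col4a1 and Col4a2 (0.53 and 0.60) and Col5a1 and Col5a2 (0.34 and 0.42) did not pass in either line. Over all 13 parental tumors, the 4 of high GC index included, r was 0.84 for Col6a1 and Col6a2 (permutation p = 3.1e-04, adjusted 0.00233; rho 0.78, p = 0.00231, adjusted 0.00866; r = 0.87 without 2). For Col6a3 and Col6a1 it was 0.46 and did not pass (permutation p = 0.116, adjusted 0.217; rho 0.47, p = 0.104, adjusted 0.196; r = 0.25 without 2). The Col6a3 and Col6a1 relation in parental tumors thus held only with the 4 tumors left out. Over all 13, r was 0.24 for Col1a1 and Col1a2, -0.17 for Col4a1 and Col4a2, where it was 0.60 over the 9, and 0.24 for Col5a1 and Col5a2, and none of them passed. In resistant tumors Col6a1 and Col6a2 both rose with the GC index (r = 0.76 and 0.95), and its part in their correlation was not tested. Genes of a library share its preparation, and its depth is unknown, so the correlations describe these libraries.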

How the data were processed

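The authors deposited 1 table of TPM by mouse gene symbol for 32 libraries. Per the labels' protocols, RNA came from Qiagen kits with DNase treatment and libraries from KAPA RNA HyperPrep kits. STAR and the build GRCh38, a human build, are named per the submitters' processing notes, and quantifier and annotation were not given in the sources used here. TPM holds no read totals, so depth per sample is unknown and precision rests on the spread between libraries. No 2 libraries held identical values.

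Values entered limma 3.58.1 (R 4.3.3) as log2(TPM + 1). Variances were moderated with a trend on the mean level, tests were two-sided, and p-values were adjusted by Benjamini-Hochberg over all genes of a fit, with calls under 0.05. The filter asked for 1 TPM in a number of libraries equal to the size of the smaller group, or in 2 libraries for the interaction. The fits were tested on simulated data. Permutation tests used 100000 resamples in scipy 1.17.1, or all orders for 9 tumors. The GC index took 2658 GC-rich (fraction above 0.55) and 684 GC-poor genes (below 0.42) with GC from GENCODE release M21 for 98.6% of the 10046 genes that averaged 5 TPM or more in tumors. Named members have a group mean of at least 1 TPM. From each pathway list up to 3 called genes of lowest adjusted p in tumors were named, plus defining cell type markers. Other markers and members were named as exceptions after their values were seen. Collagen classes and lists follow textbook knowledge, and members, lists, the GC index and alternatives were chosen with earlier results of these data known. Alternatives tried were robust moderation, median-of-ratios scaling, quantile normalization, filters of 5 TPM or none, a pseudocount of 0.1, 1 fit over all libraries, each library left out, and, in tumors, the GC index in the model or the 4 parental tumors above 0.5 left out. Python 3.11.15 with numpy 2.4.6, pandas 2.3.3 and matplotlib 3.10.9 was used.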

Additional observations from a re-analysis of the deposited data

Results flagged for a closer look

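In the 5 resistant cultures, 1 value stood far from the other 4 for 4 of 16 chains looked at. The gap to the nearest value was above 0.71 of the group's range. Chance gives such a gap in about 1 in 20 groups if values are normally distributed. TPM need not be so distributed, and the share over all genes was not counted, so 4 of 16 is no measured excess. Col4a1 was 18.3 TPM and Col4a2 10.2 TPM in resistant culture 1, against next values of 1.30 and 1.11 TPM. Col1a1 was 14.1 TPM and Col5a1 39.0 TPM in resistant culture 2, against next values of 4.27 and 29.9 TPM.

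The difference between the lines was not the same in tumors and in culture for 5 chains by the test of the interaction. The resistant minus parental value of tumors exceeded that of cultures by 4.10 for Col4a1, 3.79 for Col4a2, 3.63 for Col12a1, 3.39 for Col3a1 and 1.35 for Col4a6 on the log2 scale. In culture the resistant and parental means were 4.18 and 65.0 TPM for Col4a1 and 0.751 and 9.09 TPM for Col12a1, while in tumors they were 33.9 and 49.5 TPM for Col4a1 and 17.5 and 7.65 TPM for Col12a1.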

How the results depend on the processing

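No paired analysis was possible because the labels give no number shared between groups. The count of 12 chains higher in resistant tumors was 12 to 13 under the alternatives run, with 11 of the 12 shared with no filter, with the GC covariate and without the 4 parental tumors of high GC index, where the Col1a1 call ended, and all 12 shared under the rest. Col6a2 was gained with the covariate and without the 4 tumors, Col13a1 with the covariate, Col22a1 and Col9a1 with no filter, and Col5a1 without resistant tumor 12 or parental tumor 10. The 2 chains called lower there became 1 with no filter, 0 in 1 fit over all libraries, and 1 to 2 when each library was left out. In culture the chains higher numbered 1 to 7 and those lower 1 to 6 when each library was left out. Between parental tumors and culture, chains higher numbered 11 to 19 and chains lower 0 to 1 when each library was left out, and 0 were lower with robust moderation, with a filter of 5 TPM, with no filter, or at a pseudocount of 0.1. For the interaction 0 to 1 chains had a negative call when each library was left out. Between resistant tumors and culture the 26 chains higher became 18 with a filter of 5 TPM, 19 with quantile normalization and 30 with no filter. Quantile normalization gave 2 chains lower in resistant tumors than in culture and turned Col11a1 (-0.39), Col4a6 (-0.68) and Col4a5 (-0.29) in the resistant line and Col23a1 (-0.25) in the parental line. Differences that had not passed changed sign when a culture was left out: resistant minus parental culture ranged from -0.20 to 0.13 for Col16a1, -0.77 to 0.14 for Col1a2, -0.19 to 0.0414 for Col5a1 and -0.0170 to 0.41 for Col8a1, and parental tumors minus culture from -1.80 to 0.54 for Col8a2. Without the 4 parental tumors of high GC index the Col1a1/Col1a2 log2 ratio differed by -0.0589 and Col4a1/Col4a2 by -0.48. The cause of these changes was not tested. With 2 parental cultures and unknown depth, differences of low chains in culture are the least certain.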
